A study of Mus musculus with 20 samples.

Results

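Open chromatin was described at the 38 mouse genes that encode subunits of the BAF and NuRD chromatin remodeling complexes, 26 for BAF and 12 for NuRD, of 21938 protein-coding genes in the annotation. The members were taken from lists of known subunits, drawn up with earlier results of these data known. Peaks of all 20 ATAC-seq libraries were assigned to a member when they lay within 2 kb of any of its annotated start sites, called its promoter here, and regions elsewhere in the gene span were counted apart. ATAC-seq marks accessible DNA by the insertion of a transposase, and a peak is a stretch with more insertions than its surroundings.

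Mouse embryonic fibroblasts (MEFs) taken at mid-gestation from crosses of OG2 mice, which carry an Oct4-GFP reporter, to 129 mice were driven towards pluripotency by retroviral Oct4 together with either Nanog or NanogN70. NanogN70, called NanogBiD in the study, is NANOG fused to the N-terminal stretch of SS18 that binds BRG1, the ATPase encoded by Smarca4. Both paths carried Oct4, so Nanog with Oct4 was the control of NanogN70 with Oct4, and each path gave 1 library on each of 8 days (0, 1, 3 and 5, then 7, 8, 10 and 12). Untransduced MEFs gave 1 library and embryonic stem cells (ESCs), derived from embryos of OG2 mice and grown without feeders in 2i medium with LIF, gave 3 libraries, whose titles say ESC while their cell line field says MEF. Day 0 already followed both infections. Cells were kept in the induction medium iCD3 and later moved to the 2i medium with LIF, a switch the study places about day 7, so time and medium cannot be told apart in the later days. Cells on each day were a bulk population in which reprogrammed cells were a part, so fewer open cells and less opening per cell cannot be told apart.

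BAF, the mammalian SWI/SNF complex, uses the energy of ATP to slide and evict nucleosomes, and several of its positions are filled by alternative paralogs, of which a given complex holds one or the other. BRG1 and BRM (Smarca4 and Smarca2) are its alternative ATPases, and ESCs are known for a form built on BRG1. NuRD joins another remodeling ATPase (Chd3 or Chd4) with histone deacetylases and a methyl-CpG-binding domain protein, and MBD3-containing NuRD is known for restraining pluripotency genes.

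Each library had between 44126 and 125467 peaks, and the median height of a promoter peak ran from 19.0 reads (Nanog day 0) to 77.0 reads (NanogN70 day 3). Heights are therefore given either as deposited (pileup, the number of overlapping reads at the summit) or as relative pileup, the pileup divided by the median promoter of the same library. A pileup is read at 1 position, but the highest of all summits in a gene's windows was taken, and the windows covered 4001 bp at Ss18l1 (1 start) and 61347 bp at Smarca2 (42 starts), so genes with more starts had more summits to choose from. The NanogN70 day 3 library stood apart: 14 of 15 leukocyte marker promoters had a peak there, against 2 to 5 in the other time course libraries, 6 in MEFs and 9 to 11 in ESCs. Of 8 MEF markers, 8 had a promoter peak in MEFs and 6 in each ESC library, and of 8 ESC markers, 4 had one in MEFs and 8 in each ESC library. In the time course 4 to 8 MEF markers had one in each path, and ESC markers 2 to 4 with Nanog and 2 to 7 with NanogN70. On day 12 the MEF markers were 4 with Nanog and 7 with NanogN70, and the ESC markers 2 and 7. The parts of leukocyte signal and of peak number in the results below were not tested, and the main results are given with and without day 3. Time points of 1 course are not biological replicates, and p-values over days measure only how values varied between these libraries.

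The sequences below show the DNA that the results turn on, in GRCm38 (mm10) coordinates, 5′ to 3′. Capitals mark matches, on either strand, to any of 10 motifs: the GC box GGGCGG, the CCAAT box, the ETS motif CCGGAAG, the NRF1 motif TGCGCATG, the CTCF core motif, the REST motif TTCAGCACC, the SOX motif CATTGT, the OCT motif ATGCAAAT, the AP-1 motif TGANTCA and the TEAD motif GGAATG. First come 200 bases upstream of the alternative ATPase genes and of Actl6b, whose promoters behaved differently, each ending at the last base before any RefSeq exon. They end 64 bp before the first coding start for Smarca4 (chr9:21615906-21616105), 1 bp before it for Smarca2 (chr19:26604850-26605049) and 157 bp before it for Actl6b (chr5:137553161-137553360), all on the plus strand and outside every annotated gene.
Smarca4: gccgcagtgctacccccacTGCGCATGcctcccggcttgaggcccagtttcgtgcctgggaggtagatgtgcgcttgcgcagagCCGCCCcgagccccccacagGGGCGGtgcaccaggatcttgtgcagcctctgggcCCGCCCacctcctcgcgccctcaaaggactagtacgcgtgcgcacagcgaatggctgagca
Smarca2: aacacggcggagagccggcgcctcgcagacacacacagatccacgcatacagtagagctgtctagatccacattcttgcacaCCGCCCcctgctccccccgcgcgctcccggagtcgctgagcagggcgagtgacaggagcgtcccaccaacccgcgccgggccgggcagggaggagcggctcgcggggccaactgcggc
Actl6b: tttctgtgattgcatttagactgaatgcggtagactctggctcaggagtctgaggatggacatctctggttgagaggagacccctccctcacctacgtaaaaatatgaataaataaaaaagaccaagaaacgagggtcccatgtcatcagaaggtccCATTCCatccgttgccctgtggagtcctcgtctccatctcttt
The GC box stood upstream of Smarca4 and Smarca2, and the 200 bases before the first coding start held it in 27 of 38 members (71.1%), against 38.3% of all protein-coding genes. The median GC content of those bases was 68.25% over the members and 55.5% over all genes. The TEAD motif, printed upstream of Actl6b, was in those bases in 9.01% of all genes and 7.89% of members. The NRF1 motif was there in 2.30% of all genes and 0% of members. The NRF1 match printed for Smarca4 lies farther upstream than those bases.

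Next come 101 bases on the plus strand round the highest summit at promoters that differed between ESCs and MEFs. For Chd3 it lay in an intron (chr11:69366567-69366667), for Dpf3 before the start (chr12:83487743-83487843), and for Mta3 at an internal start of a non-coding transcript (chr17:83729157-83729257), where 94 bases were exonic.
Chd3, MEF summit: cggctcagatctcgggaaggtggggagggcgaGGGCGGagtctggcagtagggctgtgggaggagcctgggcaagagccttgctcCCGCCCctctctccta
Dpf3, MEF summit: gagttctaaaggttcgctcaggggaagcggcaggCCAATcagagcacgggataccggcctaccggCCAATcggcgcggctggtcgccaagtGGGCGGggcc
Mta3, ESC summit: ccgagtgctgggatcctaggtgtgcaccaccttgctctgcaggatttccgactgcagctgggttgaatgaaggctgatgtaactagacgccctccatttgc
GC boxes stood at the Chd3 and Dpf3 summits and 2 CCAAT boxes at the Dpf3 summit. Over all peaks of the MEF and ESC libraries, 11.9% of summits held a GC box and 14% a CCAAT box within the same length.

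Last come 101 bases round intronic summits away from starts: the Arid1b and Mta3 regions open in ESCs and on NanogN70 days only (chr17:5089563-5089663 and chr17:83732946-83733046), and the Smarcb1 region open in MEFs and mostly on Nanog days (chr10:75898963-75899063).
Arid1b, ESC-only: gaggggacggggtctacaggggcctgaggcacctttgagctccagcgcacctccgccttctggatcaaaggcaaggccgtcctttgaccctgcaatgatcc
Mta3, ESC-only: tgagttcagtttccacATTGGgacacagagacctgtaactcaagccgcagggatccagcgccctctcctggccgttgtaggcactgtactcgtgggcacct
Smarcb1, MEF-only: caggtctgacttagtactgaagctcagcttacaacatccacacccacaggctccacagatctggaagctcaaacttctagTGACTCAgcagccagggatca
The AP-1 motif stood at the Smarcb1 summit. AP-1 matched 21 of 71 MEF-only regions of members (29.6%) and 28.9% of all MEF-only regions, against 1 of 72 ESC-only regions of members and 3.11% of all ESC-only regions.

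Most member promoters of both complexes had a peak throughout. In all 20 libraries a promoter peak was called at 33 of 38 members (86.8%), beside 53.8% of all protein-coding genes. Ss18 was outside this count because summits in its exons were left out. On Nanog day 1 and NanogN70 day 12, where it had no other peak, such summits had 13 and 55 reads. The count was 23 of 26 for BAF and 10 of 12 for NuRD. It was 4 of 5 for the tissue-specific subunits (Actl6b, Dpf1, Dpf3, Smarcd3 and Ss18l1, known from neurons, muscle or heart) and 29 of 33 for the ubiquitous ones. Among 14 other remodeler genes it was 13 (92.9%), and among 10 other genes tied to these complexes 7. No member lacked a peak in every library. Counting only peaks with a score of at least 100 left 31 members, and leaving out NanogN70 day 3 did not change the count of 33.

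**Figure D1:**
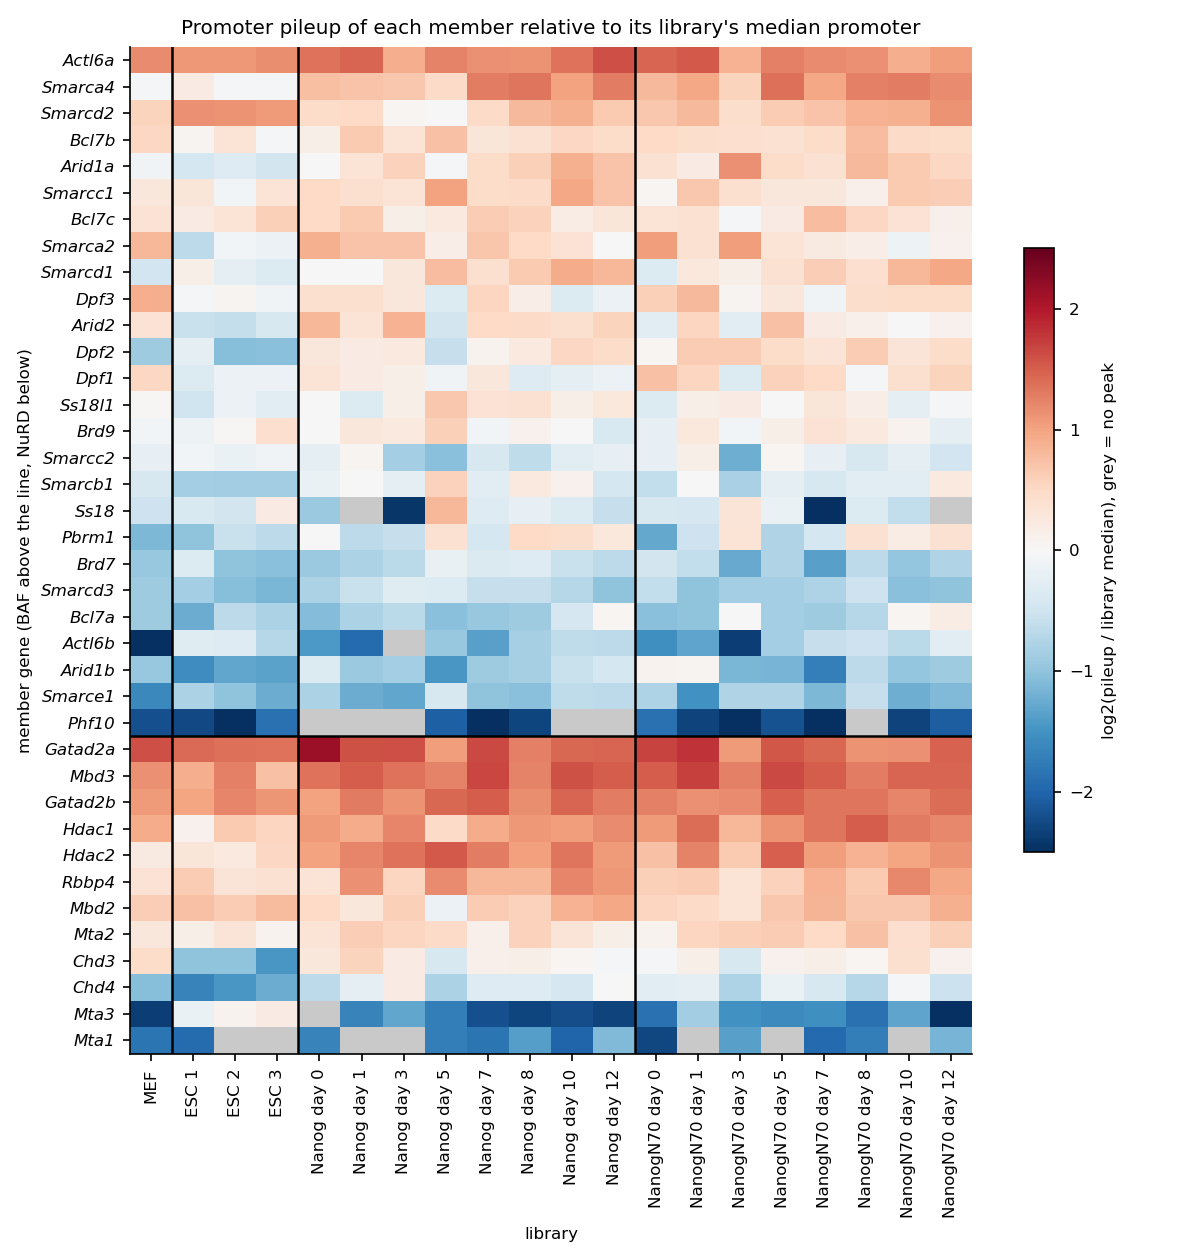
Heat map of log2 relative pileup (promoter pileup over the library's median promoter) for the 38 members in rows, BAF above the line and NuRD below, and the 20 libraries in columns, with grey where no peak was called. Gatad2a, Mbd3 and Actl6a were high throughout, and Phf10 and Mta1 were low or without a peak.

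Relative pileups spanned more between members than within most of them. The highest median over libraries was 2.73 times the library median, at Gatad2a, a zinc-finger subunit that joins the ATPase to the deacetylase part of NuRD. Mbd3 followed at 2.66, Gatad2b at 2.36, and Actl6a, the actin-like subunit BAF53A, at 2.25. The NuRD members had a median of 1.55 (0.303 to 2.73) and the BAF members 1.10 (0.208 to 2.25), and 9 of 12 NuRD and 15 of 26 BAF members lay above the median promoter. Tissue-specific members had a median of 1.06 (0.564 to 1.22) and ubiquitous ones 1.26 (0.208 to 2.73). The groups overlapped throughout, and the differences were not tested, since the lists were made with results known.

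Paralogs that replace each other in the complex stood at different heights, though their windows differed in width (8097 bp at Smarca4 and 61347 bp at Smarca2). Their highest summits also lay at unlike places, and the part of this was not tested. The summit was within 500 bp of the first coding start in 20 libraries at Smarca4 and 18 at Chd4. It was so in 2 at Arid1a and in 0 at Actl6a, Chd3 and Arid2. Smarca4 stood at 1.85 and Smarca2 at 1.27, Actl6a at 2.25 and Actl6b at 0.564, and Arid1a, the DNA-binding subunit of canonical BAF, at 1.34 against 0.532 for Arid1b. In NuRD, Mta2 stood at 1.37, Mta3 at 0.316 and Mta1 at 0.303, while Hdac1 and Hdac2, the deacetylases, stood at 2.10 and 2.05. Chd3 stood at 1.07 and Chd4, the ATPase of most NuRD, at 0.755. Of the subunits particular to the PBAF form, only Arid2 (1.21) lay above the median promoter, with Pbrm1 at 0.739, Brd7 at 0.611 and Phf10 at 0.208.

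Smarca4, Chd4 and Mbd3 had a promoter peak in all 20 libraries. Smarca4 had pileups of 45 in MEFs and 44, 43 and 32 in the ESC libraries, 31 to 112 on Nanog days (median relative pileup 1.84) and 39 to 122 on NanogN70 days (2.11). Chd4 had 22 in MEFs, 12, 16 and 14 in ESCs, 12 to 37 on Nanog days and 17 to 45 on NanogN70 days. Mbd3 had 101 in MEFs, 71, 106 and 55 in ESCs, 49 to 146 on Nanog days and 65 to 184 on NanogN70 days. Relative to the library, Mbd3 was high in all 20 libraries (1.67 to 3.25), Smarca4 was lowest in MEFs and ESCs, and Chd4 was below the median promoter in all libraries but Nanog days 3 (1.15) and 12 (1.0).

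At Ss18, whose N-terminal part is carried by the NanogN70 vector, summits inside exons were left out because vector DNA can map there. The highest remaining summit had 32 reads in MEFs, 29, 32 and 38 in ESCs, 5 to 59 on Nanog days with none on day 1, and 8 to 96 on NanogN70 days with none on day 12. These values therefore leave out any opening inside the first exon, and Ss18 was not among the promoters tested over the time course.

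The other members without a peak somewhere were weak in most libraries. Phf10, a plant-homeodomain subunit of PBAF, had 4 to 13 reads in 14 libraries and no peak on Nanog days 0, 1, 3, 10 and 12 or NanogN70 day 8. The 200 bases before its start had a GC content of 89.0%, the highest of the members, and the part of base composition was not tested. Mta1 had 6 to 30 reads in 13 libraries, including MEFs and 1 ESC library, with the highest value in NanogN70 day 3. An absent peak means only that none was called at the depth of that library.

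Actl6b encodes BAF53B, the actin-like subunit of neuronal BAF. It had a pileup of 4 in MEFs and 31, 35 and 20 in ESCs. On Nanog days it had 7 on day 0, 5 on day 1, no peak on day 3, then 17, 18, 22, 18 and 19 from day 5 to day 12. On NanogN70 days it had 10, 8, 15, 15, 31, 23, 22 and 45. Relative to the library median it stood at 0.087 in MEFs, at a mean of 0.739 in ESCs and at 0.833 on NanogN70 day 12, so that the MEF value lay below every other library with a peak. Its highest summit lay within 500 bp of the first coding start in all 19 libraries with a peak. Of 8 neuron marker promoters, 7 had a peak in MEFs and 7 in each ESC library. On Nanog days 4 to 8 of them had one, with 4 on day 3 and 8 on day 12, and on NanogN70 days 6 to 8.

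Mta3, a NuRD subunit known from epithelial cells, had 9 reads in MEFs and 34, 47 and 38 in ESCs, 6 to 11 on Nanog days with no peak on day 0, and 8 to 27 on NanogN70 days. The ESC libraries did not overlap with any other, and the 27 reads of NanogN70 day 3 were the nearest. In ESCs the highest summit lay at the internal start printed above and not at the first start, and over all libraries it was within 500 bp of the first coding start in 10 of 19.

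**Figure D2:**
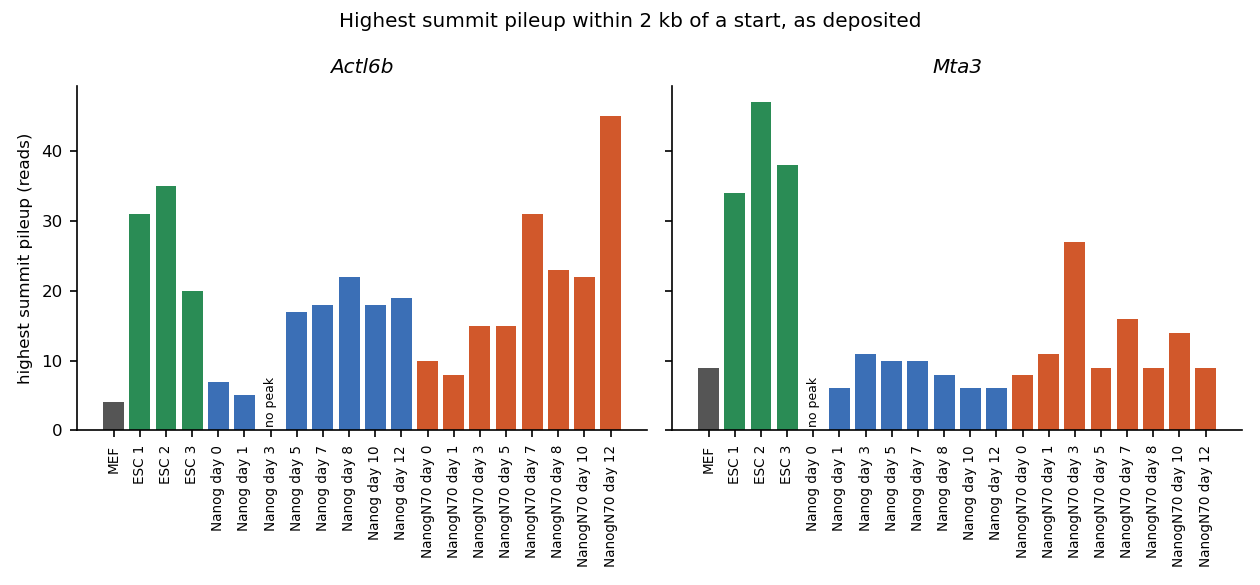
Bars give the highest summit pileup in reads, as deposited, within 2 kb of any start of Actl6b (left) and Mta3 (right) in MEFs (grey), ESCs (green), Nanog days (blue) and NanogN70 days (orange). Actl6b had 4 reads in MEFs, 20 to 35 in ESCs and 45 on NanogN70 day 12, and Mta3 had at most 27 outside the ESC libraries (34 to 47).

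ESCs and MEFs differed at some members. A limma fit on log2 pileups centred on each library's median covered 14356 promoters with a peak in all 4 libraries, 37 members among them (Mta1 lacked a peak). It called 3 members higher in ESCs and 6 lower, beside 18.4% and 16.1% of all promoters. The median difference was -0.11 over the members and -0.0018 over all promoters. The fit assumes that the lone MEF library varies like the ESC libraries, which these data cannot show, so it is a weak test. Strain background and cell type cannot be told apart in it, since the MEFs came from the cross to 129 and the ESCs from OG2 mice.

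Actl6b was 8.14-fold higher in ESCs (log2 difference 3.02 ± 0.31 SE, limma adjusted p = 1.1e-09), and Mta3 was 5.10-fold higher (2.35 ± 0.26, limma adjusted p = 4.9e-09). Smarcd2, a BAF60 scaffold subunit, had 68 reads in MEFs and 84, 96 and 69 in ESCs, and after centring it was 1.41-fold higher (limma adjusted p = 0.0096, but 0.0891 without trend). With starts of protein-coding transcripts only, the internal start of Mta3 left the window and its difference was 0.63 (limma adjusted p = 0.158).

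The promoters lower in ESCs were of Chd3, Smarca2, Dpf3, Arid2, Dpf1 and Hdac1. Chd3, the alternative ATPase of NuRD, had 63 reads in MEFs and 19, 22 and 12 in ESCs (log2 difference -1.66 ± 0.28 SE, limma adjusted p = 1.2e-05). Its highest summit lay between 2741 and 2860 bp downstream of the first coding start in all 20 libraries, in MEFs 1838 bp from the nearest start of any Chd3 transcript, and with windows of 1 kb the gene was not among those tested. Smarca2, the ATPase BRM, had 82 reads in MEFs and 24, 42 and 30 in ESCs (-1.17 ± 0.23, limma adjusted p = 0.00011). At Smarca4 the difference was 0.03, with an interval of 0.755 to 1.37 as a fold.

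Dpf3, which reads acetylated histones in muscle and heart BAF, had 86 reads in MEFs and 37, 46 and 31 in ESCs (log2 difference -0.97, limma adjusted p = 0.0002), and Dpf1, its neuronal relative, 66 against 30, 40 and 30 (-0.78, limma adjusted p = 0.0047). Hdac1 had 87 against 41, 69 and 48 (-0.54, limma adjusted p = 0.025), a call that was lost after quantile normalization, without trend and without ESC replicate 1 (limma adjusted p of 0.227, 0.130 and 0.116). At Arid2, the DNA-binding subunit of PBAF, the value was 59 in MEFs and 26, 29 and 25 in ESCs (-0.93, limma adjusted p = 0.0022), but this summit lay a median of 1960 bp before the first start. With windows of 1 kb the Arid2 difference turned to 0.75 (limma adjusted p = 0.028), so the call depends on whether the upstream summit is counted.

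**Figure D3:**
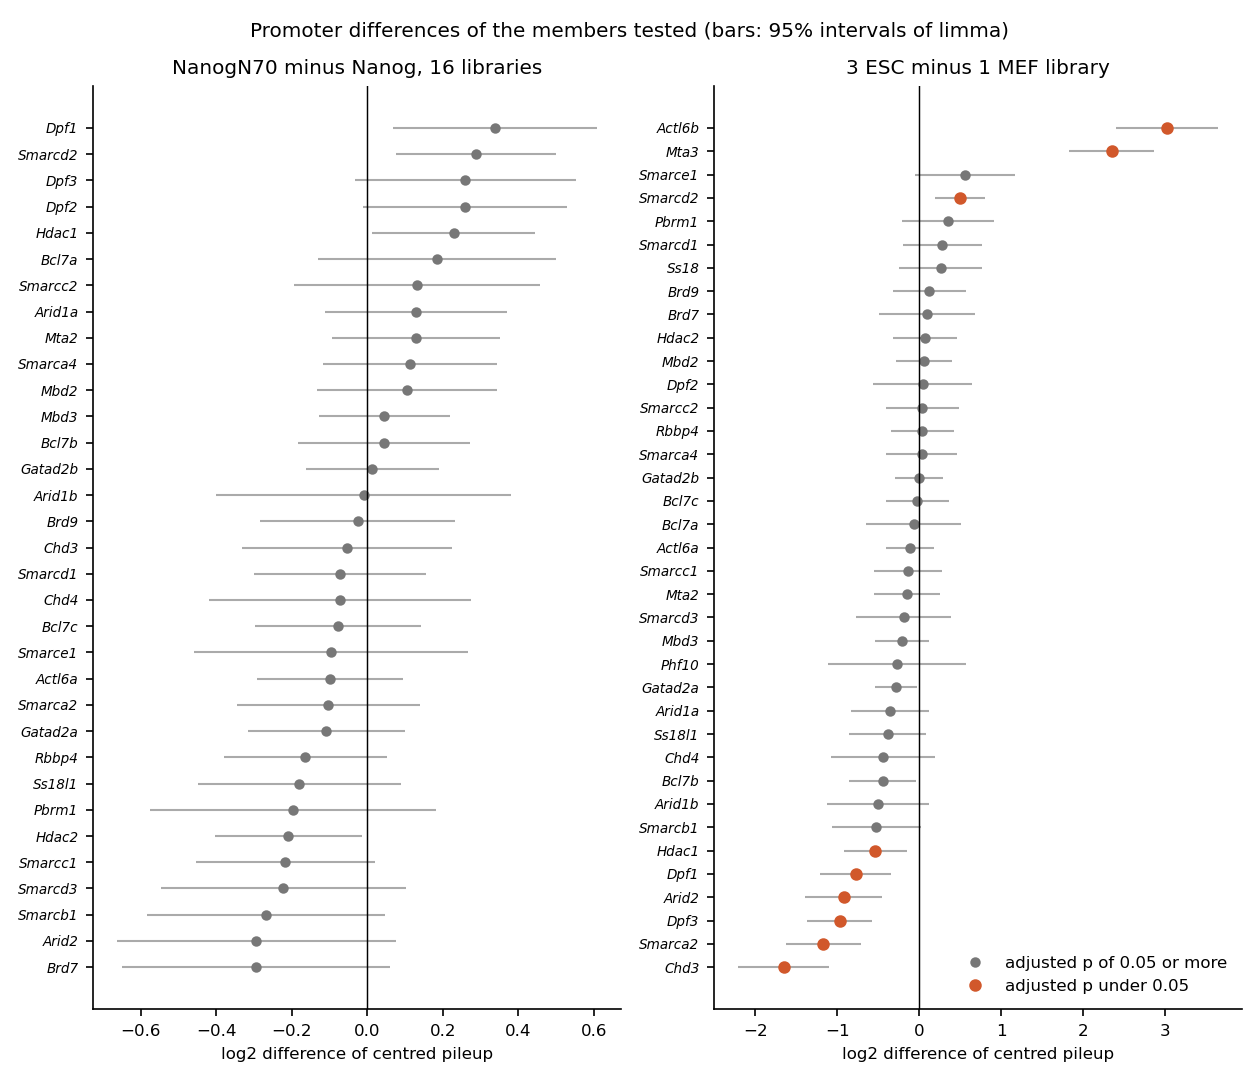
Points give limma log2 differences of median-centred promoter pileup with 95% intervals for the members tested, NanogN70 minus Nanog over 16 libraries (left, 33 members) and 3 ESC minus 1 MEF library (right, 37 members), with called members in orange. No member was called between the paths, and 9 were called between ESCs and MEFs, from Actl6b at 3.02 to Chd3 at -1.66.

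Over the days of reprogramming, the fitted slopes at the alternative BAF ATPase genes had opposite signs, though the call at Smarca4 depended on single days. A limma fit of the slope per day over both paths, on 11842 promoters with a peak in all 16 time course libraries, called 5 of 33 members tested higher with time and 1 lower, beside 7.91% and 9.13% of all promoters. The median slope was 0.0055 log2 units per day over the members and 0.0001 over all promoters. Of 23 BAF genes tested 4 rose and 1 fell, and of 10 NuRD genes 1 rose. Without day 3 there were 6 members higher and 2 lower of 34, beside 8.87% and 13.2% of promoters: Rbbp4 was no longer called, and Actl6b, Arid1a (0.044 per day, limma adjusted p = 0.032) and, among the lower, Gatad2a (-0.043, limma adjusted p = 0.028) were.

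Smarca4 rose by 0.047 ± 0.014 log2 units per day (SE, limma adjusted p = 0.024), a fitted 1.48-fold over 12 days. On Nanog days its relative pileup was 1.68, 1.63, 1.59, 1.39, 2.43, 2.51, 2.0 and 2.43 from day 0 to day 12, and on NanogN70 days 1.76, 1.95, 1.48, 2.59, 1.96, 2.39, 2.43 and 2.26. Every value from day 7 on was above the values of days 0 and 1 in both paths. The ESC libraries (1.158, 0.977 and 0.970) and MEFs (0.978) lay below all 16. The call did not hold without day 0, 1, 8, 10 or 12 (limma adjusted p of 0.0772, 0.0536, 0.0677, 0.0591 and 0.0949).

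Smarca2 changed by -0.067 ± 0.015 log2 units per day (limma adjusted p = 0.0038), a fitted 0.571-fold over 12 days. Its relative pileup was 1.84, 1.63, 1.63, 1.12, 1.61, 1.41, 1.29 and 1.00 on Nanog days and 2.07, 1.30, 2.06, 1.26, 1.17, 1.12, 0.914 and 1.07 on NanogN70 days. The last values came near those of the ESCs (0.632, 0.955 and 0.909), and the first were near that of MEFs (1.78). The call held under all 15 alternatives run for it.

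Smarcd1, the BAF60A scaffold subunit, had the smallest p of the members: it rose by 0.082 ± 0.013 log2 units per day (limma adjusted p = 0.00031), a fitted 1.98-fold over 12 days. Its relative pileup was 1.00, 1.00, 1.22, 1.70, 1.33, 1.56, 1.89 and 1.77 on Nanog days and 0.793, 1.2, 1.10, 1.30, 1.52, 1.33, 1.77 and 1.96 on NanogN70 days. The values of days 10 and 12 were the highest of each path, above MEFs (0.717) and ESCs (0.788 to 1.11). This call held under all 15 alternatives too.

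The remaining calls also depended on single days. Pbrm1, the bromodomain subunit of PBAF, rose by 0.084 per day (limma adjusted p = 0.014), from means over days 0 and 1 of 0.816 with Nanog and 0.557 with NanogN70 to means over days 10 and 12 of 1.28 and 1.22. Bcl7a, a small accessory subunit, rose by 0.070 per day (limma adjusted p = 0.029), from 0.526 and 0.491 to 0.892 and 1.08. Rbbp4, a histone-binding protein shared with other complexes, rose by 0.043 per day (limma adjusted p = 0.042), from 1.74 and 1.53 to 2.23 and 2.13. None of these 3 passed without day 0, 10 or 12, with limma adjusted p of 0.0561 to 0.0637 for Pbrm1, 0.109 to 0.359 for Bcl7a and 0.133 to 0.206 for Rbbp4. Pbrm1 and Bcl7a also failed without day 1 (0.0565 and 0.0592) and Rbbp4 without day 3 (0.0756), day 7 (0.0593) or day 8 (0.0527). Rbbp4, the 1 NuRD gene called, also failed with windows of 1 kb (0.0546), with protein-coding starts only (0.0504) and without trend (0.0730). The windows of Pbrm1 and Rbbp4 also hold starts of Gnl3 and Zbtb8os, so their peaks cannot be given to 1 gene, which holds too for Smarcc1, Brd9 and Ss18l1.

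**Figure D4:**
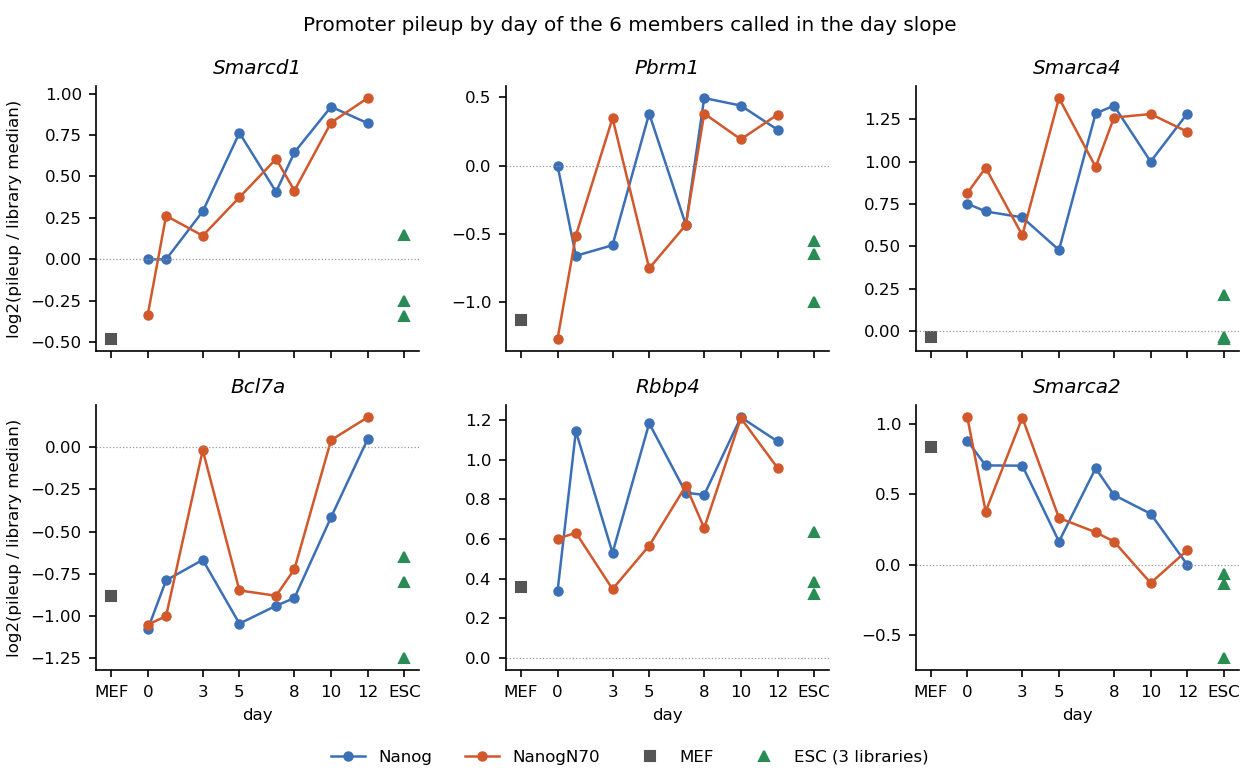
Log2 relative pileup of the 6 members called in the day slope, by day, for Nanog (blue) and NanogN70 (orange), 1 library per point, with MEFs (square) and the 3 ESC libraries (triangles) at the sides. Smarcd1, Pbrm1, Smarca4 and Bcl7a were higher on days 10 and 12 than on days 0 and 1 in both paths and Smarca2 was lower, while Rbbp4 was higher in the mean of those days.

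Actl6b was outside this fit because Nanog day 3 had no peak. Without day 3 its slope was 0.093 ± 0.020 log2 units per day (limma adjusted p = 0.0012), and with the absent peak set to the lowest pileup of that library it was 0.125 ± 0.030 (limma adjusted p = 0.0045). Among other genes tied to these complexes or to other remodelers, 20 were tested and 4 rose: Actb, which encodes the actin subunit shared by BAF, and the remodelers Smarca5, Baz1b and Chd7 (0.053 to 0.075 per day), beside 7.91% of all promoters. The count was 0 without day 0, 2 without day 1, 2 without day 10 and 1 without day 12. No gene of those lists was called lower.

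Between NanogN70 and Nanog, no member promoter was called. The limma fit with day as a pair called 186 of 11842 promoters (1.57%), 24 higher (0.203%) and 162 lower with NanogN70 (60 and 120 after quantile normalization), and 0 of 33 members. The number of promoters called ran from 17 to 339 when 1 day was left out and was 33 without trend. At an unadjusted p under 0.05 there were 4 of 33, beside 2157 of 11842 promoters: Smarcd2, Dpf1 and Hdac1 had positive differences and Hdac2 a negative one. These were chosen after their values were seen. Smarcd2 was 0.29 higher (95% interval 0.08 to 0.50, limma adjusted p = 0.140) and above Nanog on 7 of 8 days. Dpf1 was 0.34 higher (0.07 to 0.61, limma adjusted p = 0.167), also on 7 of 8 days. The exact sign-flip permutation test of the same 8 daily differences, which is not independent of the choice of these genes, gave unadjusted two-sided p of 0.0156 for Smarcd2, 0.0469 for Dpf1, 0.0938 for Hdac1 and 0.0469 for Hdac2 (0.0078 is the smallest possible). Without day 3 Dpf1 was the 1 member called, at 0.46 (limma adjusted p = 0.036), beside 2.85% of all promoters called in that fit and 0.707% called higher. Its highest summit lay near the first coding start in 10 of 20 libraries and farther from it in the rest.

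No difference between the paths was detected at the ATPase genes or Mbd3. Smarca4 differed by 0.11 (95% interval -0.12 to 0.34), Smarca2 by -0.10 (-0.35 to 0.14), Chd4 by -0.07 (-0.42 to 0.27) and Mbd3 by 0.05 (-0.13 to 0.22), all on the log2 scale. The median over the members was -0.05 and over all promoters -0.04. The difference in slope between the paths gave 0 calls in limma over all promoters, with 335 promoters and 0 members at an unadjusted p under 0.05.

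Away from starts, the member genes held 422 accessible regions, merged over all libraries. Arid1b, which spans 353325 bp, held 141 of them (33.4%), Arid2 31, Dpf3 24 and Mta3 23, while 7 members, among them Chd3, Mbd3 and Actl6b, held none. Of the 422, 33 (7.82%) were open only in the NanogN70 day 3 library, beside 5.78% over all gene spans. ESC-only regions, open in at least 2 ESC libraries and closed in MEFs, were 72 (17.1%), beside 16.3% over all gene spans. MEF-only regions were 71 (16.8%), beside 22.4%, and 26 were open in both (6.16%, beside 5.44%). ESC-only regions made up 53 of 334 regions of BAF genes (15.9%) and 19 of 88 of NuRD genes (21.6%). They lay in 20 genes, with 23 in Arid1b and 7 each in Arid2 and Mta3. Regions of 1 gene share their locus and are not independent.

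ESC-only regions opened on more days with NanogN70 than with Nanog at 22 of 72 regions (30.6%) and the other way at 4 (5.56%), beside 24.2% and 5.79% over all gene spans. Of the 72, 46 (63.9%) were open on no day in either path, beside 66.7% over all gene spans. Another 17 (23.6%, beside 16.5%) were open on NanogN70 days only and 1 (1.39%, beside 3.19%) on Nanog days only. Without day 3 of either path, 16 (22.2%, beside 19.9%) were open on more NanogN70 days, 4 (5.56%, beside 6.18%) on more Nanog days, 12 (16.7%, beside 13.1%) on NanogN70 days only and 51 (70.8%, beside 70.4%) on no day. On an average day 9.20% of them were open with NanogN70 and 3.82% with Nanog, beside 9.28% and 4.84% over all gene spans. The difference had a mean of 5.38 percentage points with an SD of 5.38 over the 8 days and was positive on 7. Without day 3 the shares were 8.13% and 4.17%. Over all 8 days they were 11.3% and 5.19% in BAF genes and 3.29% and 0% in NuRD genes. Without day 3 they were 10.2% and 5.66% in BAF genes and 2.26% and 0% in NuRD genes. That order of the complexes did not hold with scores of at least 100 (9.09% and 4.92% in BAF, 9.17% and 5.0% in NuRD) and turned with equal peak numbers (18% and 9.5% in BAF, 25% and 18.2% in NuRD). The members were thus close to gene spans in general, and no difference from them was tested.

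**Figure D5:**
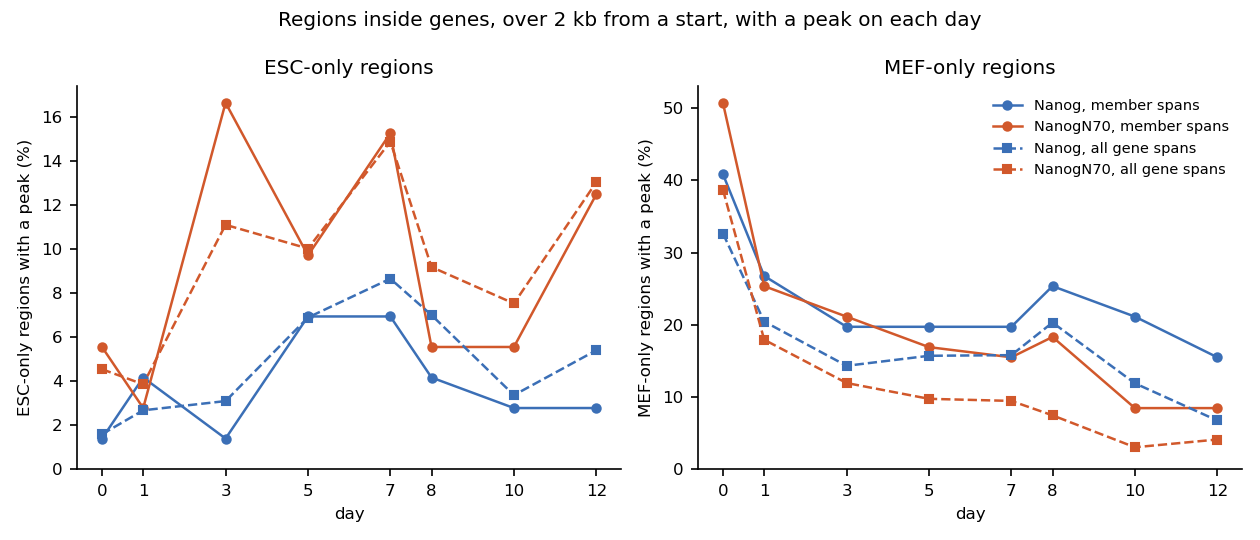
Percentage of ESC-only (left) and MEF-only (right) regions with a peak on each day, for member genes (solid lines) and all protein-coding genes (dashed), with Nanog in blue and NanogN70 in orange. The ESC-only share of member genes was at most 6.94% on Nanog days and reached 16.7% on NanogN70 day 3 and 15.3% on day 7.

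The largest path differences among ESC-only regions, by the rule for naming regions, were of 3 days. The Arid1b region printed above (chr17:5089239-5089955) had 27, 36 and 25 reads in ESCs, none on Nanog days, and 20, 8 and 7 on NanogN70 days 3, 7 and 8. A second Arid1b region (chr17:5217932-5218206) was open on 4 NanogN70 days and 1 Nanog day. The Mta3 region, 3832 bp from the nearest start, had 18, 27 and 19 reads in ESCs and 34, 6 and 8 on NanogN70 days 3, 7 and 12. A Bcl7a intron (chr5:123350371-123350659) had 16, 19 and 18 reads in ESCs and 6, 9 and 5 on NanogN70 days 0, 3 and 7. The Mta3 and Bcl7a regions and the first Arid1b region were closed on every Nanog day and had their highest time course value on NanogN70 day 3, the library that stood apart. Without that day each was open on 2 NanogN70 days.

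The other ESC-only regions of the rule differed by 2 days. They were 3 in Arid1b (chr17:5270709-5271797, chr17:5176405-5176670 and chr17:5322486-5323040) and 1 in Smarcc1 (chr9:110230513-110231060), which encodes the BAF155 core scaffold. The first of these Arid1b regions had 27, 36 and 26 reads in ESCs, 5 on Nanog day 7 and 5, 7 and 5 on NanogN70 days 5, 7 and 10. None of these 4 was open on NanogN70 day 3.

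MEF-only regions of members were open on some days in both paths. Of 71, 15 (21.1%) were open on more NanogN70 days and 18 (25.4%) on more Nanog days, beside 16.8% and 28.7% over all gene spans, and 26 (36.6%, beside 42.5%) were open on no day. With Nanog 40.8% were open at day 0 and 15.5% at day 12, while NanogN70 gave 50.7% and 8.45%, 1 library each, with no test. Over all gene spans the shares were 32.6% and 6.73% with Nanog and 38.7% and 4.10% with NanogN70. The Smarcb1 intron region (chr10:75898658-75899401), in the gene of the core subunit BAF47, had 77 reads in MEFs, 4 to 14 on 6 Nanog days and 9 on NanogN70 day 0 only. An Arid1b region (chr17:5234830-5235409) had 59 reads in MEFs and was open on 5 Nanog and 2 NanogN70 days, and another (chr17:5221091-5221442) had 7 in MEFs and was open on 6 and 2. A region overlapping an Rbbp4 exon (chr4:129324466-129325099) had 45 reads in MEFs and was open on 6 Nanog and 3 NanogN70 days.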

How the data were processed

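ATAC-seq had been done on 20 mouse libraries: 1 of MEFs, 3 of ESCs and 16 of the time course. The authors trimmed reads with Trim Galore 0.6.4, aligned them to mm10 with Bowtie2 2.4.5, used SAMtools 1.16.1 to drop reads of low mapping quality, in repeats or from mitochondria, and called peaks per library with MACS 1.4.2. The deposited peak score is that caller's transformed p-value, at least 50 in every library, and the deposited summit signal is the pileup of reads. Neither was scaled to depth by the authors, so the pileups were centred below. MACS was run without a model and with a fixed shift of the tags. Total read numbers were not given in the sources read, and counts per gene were not used.

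Groups came from the sample titles. Peaks were assigned to genes of the GENCODE M21 annotation of GRCm38 when they overlapped the window of 2 kb either side of any start by at least 1 bp, and the highest summit pileup in the window was the value. Peaks of Ss18 with a summit in an Ss18 exon were left out. The log2 pileups were centred on each library's median over the genes tested and fitted with limma 3.58.1 (R 4.3.3, eBayes with trend), with Benjamini-Hochberg adjustment over all genes tested and a threshold of 0.05: path with day as a pair, slope per day with path as a covariate, and ESC against MEF. Peaks of all libraries were merged into regions with Python 3.11.15, pandas 2.3.3 and numpy 2.4.6, and exact sign-flip tests enumerated the 8 daily differences. Of the limma fits, only the path comparison was tested on simulated data.

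Values per library were given for members without a peak in at least 1 library, for up to 6 members per comparison by smallest p and for Smarca4, Ss18, Chd4 and Mbd3. Dpf1, Smarcd2 and Hdac1 were described beyond that limit for ESC against MEF. Regions were named by the largest difference in open days (8 ESC-only and 4 MEF-only). The members and lists were chosen with earlier results of these data known. Alternatives changed the window, starts, score, normalization, filters and days.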

Additional observations from a re-analysis of the deposited data

Results flagged for a closer look

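Summits inside Ss18 exons, which the promoter values left out, had a pileup of 114 on NanogN70 day 0 and 82 on NanogN70 day 1, against 28 in MEFs, 16 and 13 on Nanog days 0 and 1, 28 in ESC replicate 2 and 15 to 55 on the other days. The other ESC libraries had no such summit. The NanogN70 vector carries part of Ss18, and vector DNA and the gene itself cannot be told apart in these peak lists. In the NanogN70 day 3 library 14 of 15 leukocyte marker promoters had a peak, against 3 to 5 on the other NanogN70 days.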

How the results depend on the processing

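Of the alternatives to the summary counts, 106 left the count within 1.5 times or the value within its spread and 24 did not; for named members 182 kept call and direction, 27 lost the call, 1 gained it and 1 reversed. The path comparison called 186 promoters, 44 with scores in place of pileups, 33 without trend and 17 to 339 when 1 day was left out, with 0 to 1 members higher (Dpf1, without day 3) and 0 lower. The day slope called 878 to 2616 promoters when 1 day was left out, with 1 to 6 members higher and 1 to 2 lower (2 lower with scores). Only 1 member was called higher without day 0, 10 or 12, beside 3.9%, 3.99% and 3.32% of all promoters. The number was 2 without day 1 (beside 5.37%) and 3 without day 8 (beside 5.59%). ESC against MEF called 2748 promoters after quantile normalization, 4624 to 5142 when 1 ESC library was left out (3 members higher, 5 to 7 lower), and 5 members higher and 8 lower with scores. Arid2 reversed to 0.75 with windows of 1 kb, and the cause was not tested beyond the position of its summit. The ESC-only difference between paths was 5.38 percentage points, 3.97 without day 3, 4.17 with scores of at least 100 and 7.99 with equal peak numbers. Leaving out NanogN70 day 3 was chosen after seeing the data for the promoter and region counts. The path fit was paired by day. At Phf10 and Mta1 an absent peak is not evidence of closed chromatin, and the part of depth was not tested.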
